A study of Mus musculus with 22 samples.

Results

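The 8 genes that encode the subunits of the condensin complexes, Smc2, Smc4, Ncapd2, Ncaph, Ncapg, Ncapd3, Ncaph2 and Ncapg2, were followed through exit from a resting state. They were taken by gene symbol, and all 8 were present among the 11208 genes of the table. The cells were mouse NIH/3T3, an established fibroblast line, carrying a stably integrated doxycycline-inducible construct that held either E2F1 (the E2F1 line) or no insert (empty vector, the EV line). Every group, controls included, carried such a construct and had been starved for 48 h in 0.25% serum before time 0. The E2F1 line was sampled at 0, 2, 6 and 12 h of 500 ng/ml doxycycline. The EV line was sampled at 0, 2, 6 and 12 h of the same doxycycline, and at 2, 6 and 12 h after 10% serum was added. Serum had no 0 h group of its own, so its 0 h libraries were those of the EV line. Each of the 11 groups had 2 libraries of polyadenylated RNA, 22 in all. Whether each line is a clone or a pool of clones, the promoter that drives the construct beyond its response to doxycycline, and whether replicates came from separate cultures are not given in the sources used here. P-values therefore measure the spread between these libraries, which may be technical.

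Condensins are ring-shaped ATPases of the SMC family that fold chromatin into loops and compact chromosomes for mitosis. Smc2 and Smc4 form the ATPase pair common to both complexes. Condensin I adds the kleisin Ncaph and the HEAT-repeat subunits Ncapd2 and Ncapg; condensin II adds Ncaph2, Ncapd3 and Ncapg2. In most dividing cells condensin II is in the nucleus throughout the cell cycle, while condensin I reaches the chromosomes after the nuclear envelope breaks down. Transcription of many genes of chromosome division is low in resting cells and peaks late in the cycle. E2F factors bind promoter sites centred on a GC-rich core, and the cell cycle homology region (CHR) element is bound by the DREAM and MuvB complexes in promoters of mitotic genes.

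A promoter window from RefSeq (GRCm38.p6), 250 bases before to 50 after the transcription start, was matched for 7 of the 8 genes by symbol, and Smc4 was not matched. Below are the 150 bases before the start (position -150 to -1, where +1 is the first transcribed base) of 4 genes. They are the 3 genes with an 8-base E2F match in the window and Ncaph2, the gene with the smallest change at 12 h in the E2F1 line. Capitals mark matches to an 8-base E2F motif or to the CHR motif. The regions are chr6:125191587-125191736 on the minus strand for Ncapd2, and on the plus strand chr5:45669775-45669924 for Ncapg, chr12:116405286-116405435 for Ncapg2 and chr15:89355569-89355718 for Ncaph2.
Ncapd2: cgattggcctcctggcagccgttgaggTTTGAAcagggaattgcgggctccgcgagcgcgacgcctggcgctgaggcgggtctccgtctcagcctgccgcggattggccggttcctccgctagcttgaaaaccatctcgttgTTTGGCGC
Ncapg: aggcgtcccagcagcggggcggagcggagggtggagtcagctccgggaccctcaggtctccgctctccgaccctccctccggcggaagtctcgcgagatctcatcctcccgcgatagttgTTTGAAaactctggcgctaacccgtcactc
Ncapg2: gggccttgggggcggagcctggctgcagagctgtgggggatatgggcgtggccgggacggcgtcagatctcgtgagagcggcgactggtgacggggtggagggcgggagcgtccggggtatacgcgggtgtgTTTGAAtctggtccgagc
Ncaph2: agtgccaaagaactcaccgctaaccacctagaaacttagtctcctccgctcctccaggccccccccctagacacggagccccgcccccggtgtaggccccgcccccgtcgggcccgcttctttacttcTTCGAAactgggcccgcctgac

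The E2F motif was searched on both strands as TTTCCCGC, TTTCGCGC, TTTGCCGC or TTTGGCGC. It occurred in 2.26% of the 32851 promoter windows, in 4.21% of the 11012 windows of genes in the table, and in those of 3 members. In Ncapd2 it lay at -8 to -1, the last bases printed. In Ncapg it lay at +32 to +39, and in Ncapg2 at -249 to -242 and at +1 to +8, all outside the bases printed. The CHR motif, searched on both strands as TTTGAA or TTCGAA, occurred in 19.2% of all windows and in 13.8% of the windows of genes in the table. It occurred in those of 6 members. A member was counted if any of its windows matched, while the percentages are per window. It lay at -123 to -118 in Ncapd2, -30 to -25 in Ncapg, -18 to -13 in Ncapg2 and -22 to -17 in Ncaph2. In Smc2 it lay at -145 to -140 and +27 to +32, and in Ncapd3 only in a window of a second start site. CCAAT, searched on both strands, occurred in 37.4% of all windows and in 38.6% of the windows of genes in the table. Among the members it was found in Ncapd2, at -177 to -173, -148 to -144 and -48 to -44, in Ncapg at -176 to -172 and in Smc2 at -119 to -115. The same E2F forms without their first T, 7 bases long, which every 8-base match contains, occurred in 9.57% of all windows and in 17.3% of the windows of genes in the table. This shorter form added Ncaph at +42 to +48 and Ncapd3 at -240 to -234, for 5 of the 7 genes. These matches are descriptions of the letters in the window, not of binding.

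The genes lie on 8 chromosomes. In GRCm38 with GENCODE M21, which is the mm10 build of the submitters' processing notes, Smc2 is at chr4:52439243-52488260 and Smc4 at chr3:69004738-69034623, both on the plus strand. Of the condensin I genes, Ncapd2 is at chr6:125168007-125191701 and Ncaph at chr2:127103809-127133954, both on the minus strand, and Ncapg is at chr5:45669919-45700546 on the plus strand. The condensin II genes Ncapd3 at chr9:27030175-27095315, Ncaph2 at chr15:89355719-89372826 and Ncapg2 at chr12:116405402-116463731 are all on the plus strand. The printed promoter bases of Ncapd2, Ncapg and Ncapg2 reach inside these GENCODE bounds. The positions of the motif matches above therefore hold for the RefSeq starts only. Whether counting used strand is not given in the sources used here. Reads of Ncapg and of the opposite-strand gene Lcorl, of Ncaph2 and of Sco2 and Tymp, and of Smc2 and the pseudogene Tmc4-ps could then not be told apart where they overlap. Of these, Lcorl was in the table, with a mean of 731.5 normalized counts over the 22 libraries and a log2 change of 1.33 at 12 h in the E2F1 line.

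Values are the authors' normalized counts, rounded to whole numbers. Their totals ran from 34014608 to 46057140 per library, and the original read depth is unknown. All 12 fibroblast markers listed were in the table, among them Col1a1, Col1a2 and Fn1. Of the markers of other cell types, 0 of 6 epithelial, 0 of 4 endothelial, 0 of 6 muscle or fat and 1 of 6 leukocyte genes (Csf1r) were listed. E2f1 itself stood at 1703 and 1637 normalized counts in the E2F1 line at 0 h, at 1535 and 1755 at 2 h, at 3806 and 3602 at 6 h and at 2683 and 2845 at 12 h. In the EV line on doxycycline E2f1 stayed between 1307 and 1655, and in serum it stood at 802 and 740 at 2 h, 1186 and 956 at 6 h and 4615 and 4247 at 12 h. These counts do not tell RNA of the construct from the cells' own E2f1, so they are not a measure of induced E2F1 alone. Ddx3y, a Y-linked gene high in the E2F1 line (521 and 580 at 0 h) and low in the EV line (9 and 4 at 0 h), stood at 329 and 316 in the 2 h libraries of the E2F1 line. It stood at 103 and 71 in the 2 h doxycycline and at 132 and 170 in the 2 h serum libraries of the EV line, so all 2 h libraries lay between the 0 h levels of the lines. Other libraries lay between those levels too: Ddx3y stood at 415 and 435 in the E2F1 line at 6 h. In the EV line it stood at 31 and 18 at 6 h of doxycycline, 48 and 35 at 6 h of serum and 29 and 19 at 12 h of serum. At 12 h it stood at 546 and 446 in the E2F1 line and at 9 and 4 in the EV line on doxycycline. The part of this in the values of those libraries, 2 h included, was not tested.

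The EV 0 h libraries differed from each other in every condensin gene. Replicate 2 was higher than replicate 1 in 8 of 8, by 1.19 to 1.93 times, with a median log2 difference of 0.68. The mitosis list described further on moved the same way in those libraries, by a median of 0.91 in 20 of 20 genes. EV doxycycline 6 h replicate 2 was likewise above replicate 1 in 8 of 8 condensin genes, with a median log2 difference of 0.61, and serum 6 h replicate 2 in 7 of 8, with a median of 0.42. In the E2F1 line the replicates differed by at most 1.08 times at 0 h, 1.38 times at 2 h, 1.22 times at 6 h and 1.14 times at 12 h. At 12 h of serum in the EV line they differed by at most 1.21 times. The test gives a gene the same spread in all groups, so its standard errors do not show these differences between groups.

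In starved cells the genes were unevenly expressed. In bulk RNA, here and below, fewer cells expressing a gene and less RNA per cell cannot be told apart. Per kb of exon, the scale used to compare genes, the level at 0 h in the E2F1 line was highest for Smc4 at 1129 ± 21.4 normalized counts per kb (SD, n = 2) and Ncaph2 at 1054 ± 37.2. Ncapd2 followed at 539 ± 14.2, then Smc2 at 439 ± 24.9 and Ncaph at 236 ± 2.63. Ncapg2 at 174 ± 9.60, Ncapg at 162 ± 8.61 and Ncapd3 at 154 ± 0.538 were lowest, and the libraries of Ncapg2 and Ncapg overlapped. The EV line at 0 h had the same first 5 genes in the same order, with Smc4 at 1011 ± 253 and Ncaph at 177 ± 70.9. Ncapg, Ncapd3 and Ncapg2 were between 128 and 129 there and were not distinguishable on this scale. The order of genes rests on exon length and was not taken with coding length, which can change it. Exon and longest coding length were 9939 and 3414 bases for Ncapg2, and 4198 and 1824 for Ncaph2. The ATPase pair was unequal per kb of exon. Smc2 stood at 0.389 ± 0.0294 of Smc4 in E2F1 cells at 0 h, against 0.510 ± 0.0285 at 12 h of doxycycline. In the EV line that ratio was 0.339 ± 0.00880 at 0 h, 0.551 ± 0.0193 at 12 h of serum and 0.257 ± 0.0189 at 12 h of doxycycline.

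Between the lines at 0 h, no condensin gene passed the limma test at an adjusted p of 0.05, against 8.86% of all genes higher and 6.17% lower in the E2F1 line. The log2 differences, E2F1 minus EV, were all positive, from 0.18 to 0.55, and 2 genes had an unadjusted p below 0.05. Without EV 0 h replicate 2 some condensin genes passed as higher in the E2F1 line, in a fit where a smaller share of all genes was called. Without EV 0 h replicate 1 the median difference was 0.05 in place of 0.39, and those of Smc4 (-0.08), Ncapg (-0.06) and Ncapd3 (-0.03) were below 0.

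Across all 11 groups, every condensin gene had its highest mean at 12 h in the E2F1 line, with both libraries above all other libraries. The share of all genes whose libraries separate or overlap in a comparison, here and below, was not counted. Next came the E2F1 line at 6 h and the EV line at 12 h of serum. The first stood above the second for Smc4, Ncapd2, Ncaph, Ncapd3 and Ncaph2, and below it for Smc2 and Ncapg. For Ncapg2 those 2 groups overlapped. The lowest mean was that of the EV line at 12 h of doxycycline for 5 genes, and at 2 h of serum for Smc4, Ncapd3 and Ncaph2.

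**Figure D1:**
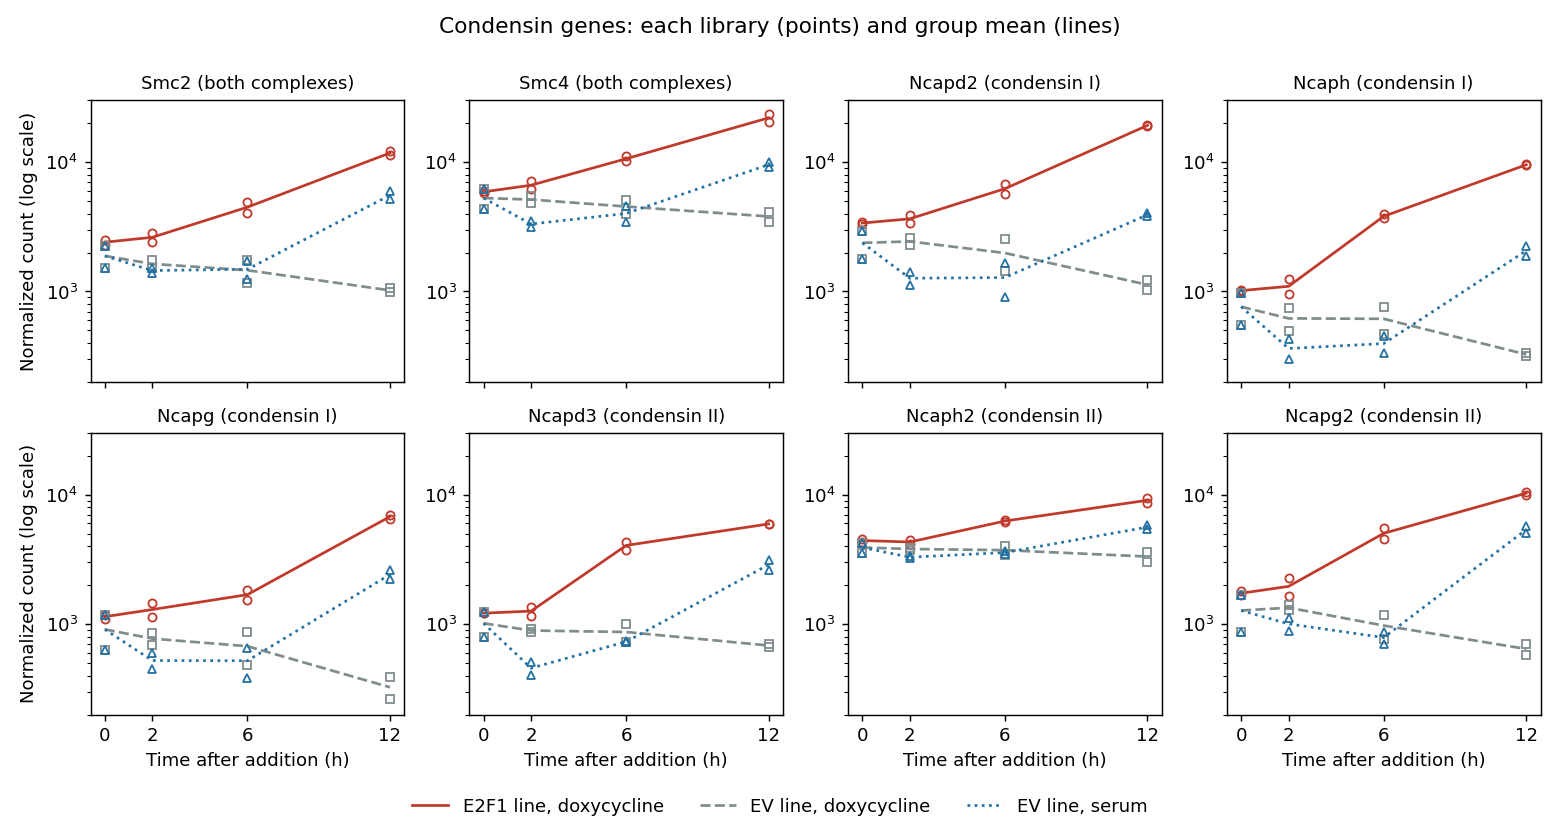
Normalized counts (log scale) of the 8 condensin genes against hours after doxycycline or serum was added. Points are single libraries and lines join group means; the serum course starts from the EV 0 h libraries. In each panel both E2F1 12 h libraries lie above all others, and the serum course falls or stays low at 2 and 6 h before it rises at 12 h.

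After E2F1 induction condensin genes rose in 7 of 8 cases by 6 h and in 8 of 8 by 12 h, and none was called at 2 h. Genes were tested with limma on log2(value + 1), with p-values adjusted by Benjamini-Hochberg over all 11208 genes, and fold changes are on that scale. At 12 h, 31.8% of all genes passed as higher, and the median log2 change was 2.40 over the condensin genes and -0.02 over all genes. At 6 h, 28.8% of all genes passed as higher and the medians were 0.88 and -0.03. At 2 h, 0 of 8 passed, against 0.865% of all genes higher and 0.99% lower. The log2 changes at 2 h ran from -0.04 to 0.17, no gene had an unadjusted p below 0.05, and in 7 of 8 genes the libraries of 0 and 2 h overlapped.

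The shared ATPase subunits rose at both later times. Smc2 had 2499 and 2306 normalized counts at 0 h, 4921 and 4040 at 6 h, and 12071 and 11434 at 12 h. It was 4.89-fold higher at 12 h than at 0 h (log2 change 2.29, SE 0.19, adjusted p = 1.26e-08). Smc4, its partner, had 5804 and 5962 at 0 h, 11090 and 10120 at 6 h, and 23413 and 20495 at 12 h. It rose 3.72-fold (log2 change 1.90, SE 0.16, adjusted p = 1.43e-08), the smaller rise of the pair, and had the highest level per kb of all 8 genes at 12 h, 4214 ± 396. For both genes the libraries of the 3 times did not overlap.

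The condensin I genes included the largest rise. Ncaph, the kleisin that closes the condensin I ring, had 1024 and 1008 normalized counts at 0 h, 3935 and 3681 at 6 h, and 9449 and 9608 at 12 h. That was 9.37-fold (log2 change 3.23, SE 0.26, adjusted p = 9.27e-09), with both late times clear of the 0 h libraries. Ncapd2, a HEAT-repeat subunit, had 3315 and 3441 at 0 h, 6761 and 5692 at 6 h, and 18994 and 19367 at 12 h. It rose 5.68-fold (log2 change 2.51, SE 0.26, adjusted p = 1.97e-07), most of it after 6 h. Ncapg, the other HEAT-repeat subunit, had 1185 and 1099 at 0 h, 1844 and 1535 at 6 h, and 6998 and 6543 at 12 h. It rose 5.93-fold by 12 h (log2 change 2.57, SE 0.30, adjusted p = 7.95e-07). At 6 h it was the gene that did not pass, with a log2 change of 0.56 (95% interval -0.07 to 1.19, adjusted p = 0.125), although both libraries were above both of 0 h; fitted on those 4 libraries alone, the adjusted p was 0.00238.

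The condensin II genes held both an early riser and the flattest gene. Ncapd3, a HEAT-repeat subunit of condensin II, had 1213 and 1219 normalized counts at 0 h, 4343 and 3770 at 6 h, and 5991 and 5900 at 12 h. It rose 3.33-fold by 6 h (log2 change 1.73, SE 0.17, adjusted p = 1.85e-07) and 4.89-fold by 12 h. Ncapg2 had 1800 and 1665 at 0 h, 5496 and 4563 at 6 h, and 10576 and 9985 at 12 h. It rose 2.89-fold by 6 h and 5.93-fold by 12 h (log2 change 2.57, SE 0.24, adjusted p = 6.03e-08). Ncaph2, the kleisin of condensin II, started high, with 4315 and 4536 at 0 h, and had 6196 and 6321 at 6 h and 8639 and 9482 at 12 h. Its rise was 2.05-fold (log2 change 1.03, SE 0.10, adjusted p = 6.72e-08), the smallest of the 8, with no overlap between times. At 12 h the kleisins of the 2 complexes stood at 2212 ± 26.1 (Ncaph) and 2158 ± 142 (Ncaph2) normalized counts per kb of exon. These were within their SDs, after a gap of 236 to 1054 at 0 h. That likeness rests on exon lengths of 4307 and 4198 bases. The longest coding lengths were 2193 and 1824, and the 2 levels were not compared on that scale.

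The authors' deposited table for 12 h in the E2F1 line lists 510 genes with an absolute log2 fold change of 2.0 or more, and held 6 of the 8 genes. Their table for 6 h in that line lists 264 genes and held 0 of the 8. The values in the authors' deposited table were 3.24 for Ncaph, 2.58 for Ncapg2, 2.58 for Ncapg, 2.51 for Ncapd2, 2.30 for Smc2 and 2.30 for Ncapd3. Smc4 and Ncaph2, the genes with the smallest 12 h changes here, were not listed.

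**Figure D2:**
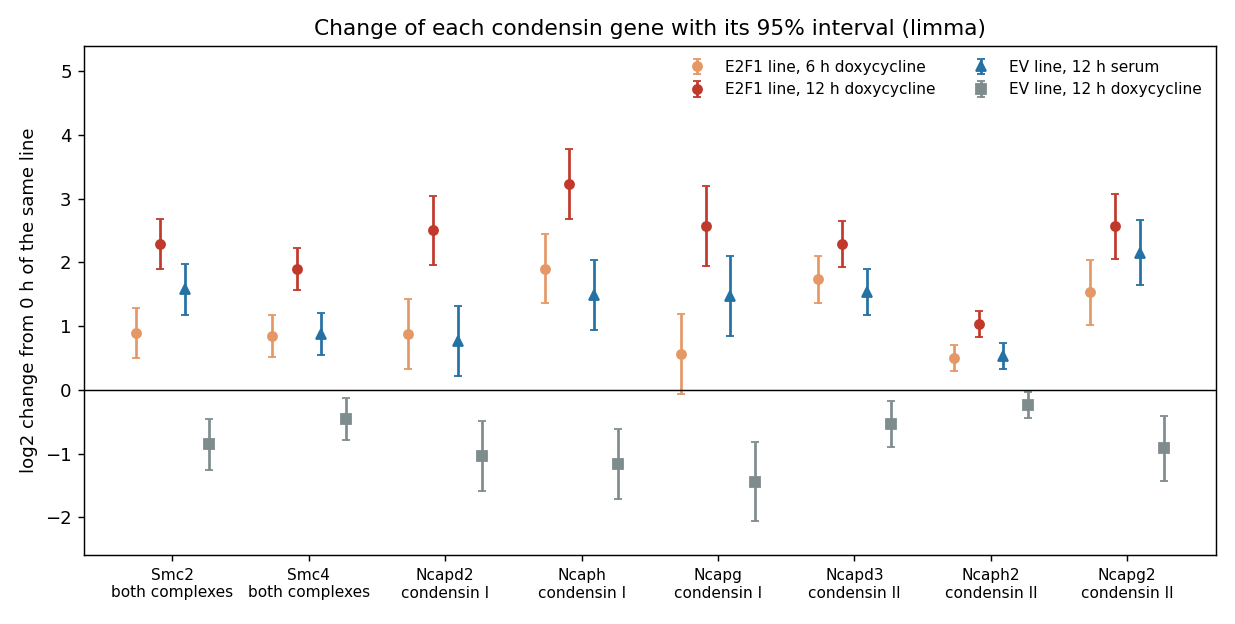
Log2 change of each condensin gene from 0 h of the same line, for 6 and 12 h of doxycycline in the E2F1 line and 12 h of serum or doxycycline in the EV line. Points are limma estimates and bars their 95% intervals (n = 2 libraries per group). All E2F1 12 h estimates lie at or above 1.03, all EV doxycycline 12 h estimates lie below 0, and Ncaph2 has the smallest change in each of the 12 h courses.

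The members differed in when they rose. The change at 6 h, as a share of the log2 change at 12 h, was 75.7% for Ncapd3, 59.6% for Ncapg2 and 59.0% for Ncaph. It was 48.5% for Ncaph2, 44.7% for Smc4, 39.0% for Smc2, 35.0% for Ncapd2 and 21.8% for Ncapg. Between 6 and 12 h all 8 genes rose further and passed the test, against 15.1% of all genes higher and 20.2% lower. That step was 4.02-fold for Ncapg (log2 change 2.01, SE 0.30, adjusted p = 8.54e-05) and 3.09-fold for Ncapd2. It was 1.47-fold for Ncapd3 (log2 change 0.56, SE 0.17, adjusted p = 0.0196), whose step did not pass once E2F1 12 h replicate 1, E2F1 12 h replicate 2 or E2F1 6 h replicate 2 was left out (adjusted p = 0.0807, 0.0727 and 0.137). The 6 h rise of Ncapd2 (log2 change 0.88, SE 0.26, adjusted p = 0.00908) did not pass without E2F1 6 h replicate 1 (0.75, adjusted p = 0.0753).

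For comparison, a list of 20 replication genes and a list of 20 mitosis genes were read on the same scale. The replication genes passed as higher in 20 of 20 at 6 h and 19 of 20 at 12 h, with median log2 changes of 1.34 and 1.64. Ccne1, the cyclin that starts S phase, had a log2 change of 4.05 at 6 h and 4.06 at 12 h, and Rrm2, a subunit of ribonucleotide reductase, of 2.96 and 3.65. Of all genes, 28.8% passed as higher at 6 h and 31.8% at 12 h. The mitosis genes passed in 5 of 20 at 6 h, near the share of all genes, and in 20 of 20 at 12 h. Their median log2 changes were 0.47 and 2.24. The share reached at 6 h was highest among them for Kif23, a kinesin of cytokinesis, at 34.6%, and Aurkb, the kinase of the chromosomal passenger complex, stood at 24.4% with a 12 h change of 2.94. The lowest share among the replication genes was that of Rrm1, the large subunit of ribonucleotide reductase, at 46.2%. Ncapd3, Ncapg2, Ncaph and Ncaph2 thus had shares within the range of the replication genes, Ncapg had a share within that of the mitosis genes, and Smc4, Smc2 and Ncapd2 had shares between the lists. These are descriptions of estimates and the differences between shares were not tested.

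**Figure D3:**
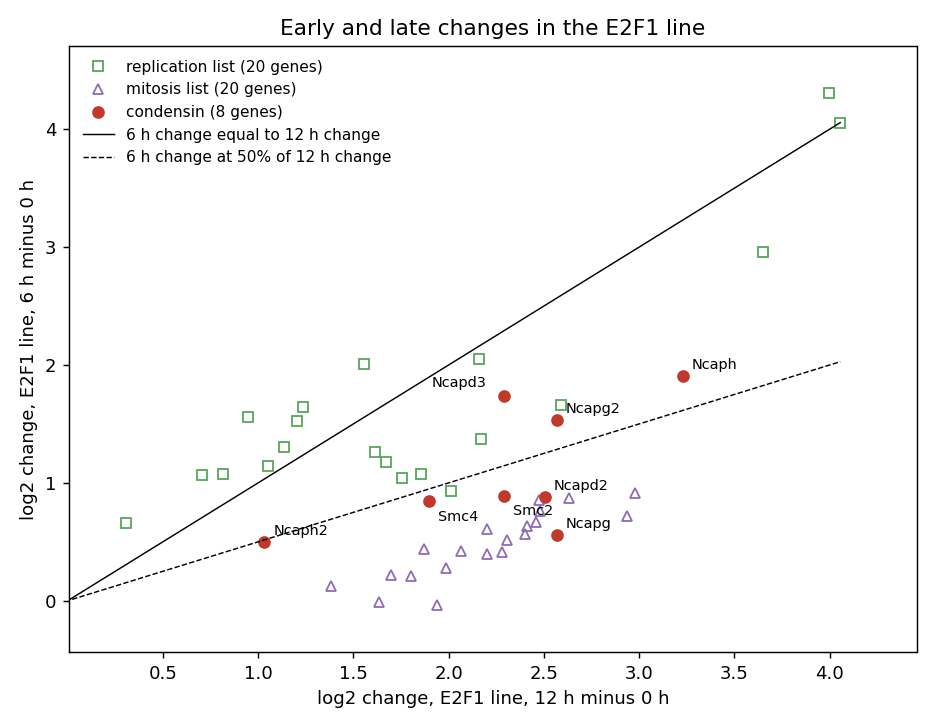
Log2 change at 6 h against log2 change at 12 h of doxycycline in the E2F1 line, both from 0 h, for the 8 condensin genes, 20 replication genes and 20 mitosis genes. Each point is a gene; the solid line marks equal changes and the dashed line a 6 h change at 50% of the 12 h change. Ncapd3, Ncapg2 and Ncaph lie between the dashed and solid lines, many replication genes lie near or above the solid line, and Ncapg lies among the mitosis genes.

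No condensin gene passed as higher on doxycycline in the EV line. There 0 of 8 passed at 2 h, against 4.93% of all genes higher and 2.43% lower, with log2 changes from -0.27 to 0.15. At 6 h 0 of 8 passed, against 0.134% higher and 0% lower, with changes from -0.42 to -0.07; at neither time had a gene an unadjusted p below 0.05. At 12 h, 5 of 8 passed as lower, against 3.42% of all genes lower. Ncapg had 635 and 1187 normalized counts at 0 h, 484 and 867 at 6 h, and 263 and 388 at 12 h. The 12 h log2 change of Ncapg was -1.44 (SE 0.30, adjusted p = 0.0101), and both 12 h libraries were below both of 0 h. Ncaph went from 547 and 979 to 317 and 336 (log2 change -1.16), and Ncapd2 from 1792 and 2956 to 1032 and 1223 (-1.03). Ncapg2 had -0.92 and Smc2 -0.86. The log2 change was -0.53 for Ncapd3, -0.45 for Smc4 and -0.23 for Ncaph2, and none of these 3 passed. The 12 h calls depended on the libraries, and the share of all genes called also moved in fits without a library. Without EV 0 h replicate 2 no call held, and the 5 changes ran from -0.99 for Ncapg to -0.44 for Ncapg2. Without EV doxycycline 12 h replicate 1 no call held either, and they ran from -1.16 for Ncapg to -0.77 for Ncapg2. Without EV doxycycline 12 h replicate 2 the calls of Smc2 and Ncapg held. With only the groups compared, 0 of 8 passed. At 12 h the mitosis list fell with the condensin genes, 17 of 20 lower with a median of -1.30. The replication list fell in 16 of 20 with a median of -0.83.

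In serum, condensin genes were low at first and high at 12 h. At 2 h, 6 of 8 passed as lower, against 33.5% of all genes lower and 37.5% higher. Ncapd3 had 793 and 1238 normalized counts at 0 h and 510 and 405 at 2 h, a 2.18-fold fall (log2 change -1.12, SE 0.17, adjusted p = 1.38e-05) with no overlap. Ncaph fell by 1.03 on the log2 scale, Ncapd2 by 0.87, Ncapg by 0.74, Smc4 by 0.65 and Ncaph2 by 0.24. Smc2 at -0.35 and Ncapg2 at -0.28 did not pass. At 6 h 6 of 8 again passed as lower, against 31% of all genes, with Ncapd2 at -0.91 and Ncaph at -0.90 the lowest, and Smc2 (-0.33) and Ncaph2 (-0.12) did not pass. The libraries of 0 and 6 h overlapped in 5 of the 8 genes. These falls depended on single libraries. Over the 8 genes the median log2 change was -0.69 at 2 h and -0.53 at 6 h. Without EV 0 h replicate 2 it was -0.34 at 2 h and -0.14 at 6 h. Without serum 2 h replicate 2 it was -0.55 at 2 h, and without serum 6 h replicate 1 it was -0.41 at 6 h. Calls were lost in each of these fits, while the share of all genes called lower changed little.

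At 12 h of serum all 8 genes passed as higher than at 0 h, against 36% of all genes. The median log2 change was 1.48 over the condensin genes and 0.05 over all genes. Ncapg2 had 870 and 1679 normalized counts at 0 h, 700 and 876 at 6 h, and 5707 and 5054 at 12 h. It rose 4.44-fold from 0 h (log2 change 2.15, SE 0.24, adjusted p = 4.57e-07), the largest rise of the 8 in serum. The authors' deposited table lists Ncapg2 at 2.18 as the sole condensin gene among its 726 genes. Smc2 went from 1517 and 2251 to 5948 and 5141, a 2.99-fold rise. Ncapd3 went from 793 and 1238 to 3123 and 2641, a 2.90-fold rise. Ncaph rose 2.81-fold to 2261 and 1874, and Ncapg 2.78-fold to 2600 and 2237. Smc4 rose 1.84-fold to 10011 and 9091, and Ncaph2, again the smallest, 1.44-fold to 5393 and 5848. Ncapd2 rose 1.70-fold to 4023 and 3809 (log2 change 0.77, SE 0.26, adjusted p = 0.0151), and did not pass without EV 0 h replicate 1 (0.41, adjusted p = 0.241) or without serum 12 h replicate 1 (0.73, adjusted p = 0.0681). In all 8 genes both 12 h libraries were above both of 0 h, and the share of all genes for which this holds was not counted. From 6 to 12 h of serum all 8 rose, against 19.3% of all genes, from 1.57-fold for Ncaph2 to 6.85-fold for Ncapg2. The replication list was higher in 20 of 20 genes at 12 h of serum (median log2 change 2.29), and the mitosis list in 7 of 20, with 1 lower (median 0.22). The mitosis count was near the 36% of all genes higher, and 29.7% of all genes were lower.

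The difference between the lines on doxycycline was tested as the E2F1 change minus the EV change. At 2 h 0 of 8 passed, against 0.0535% of all genes higher and 0.0892% lower, and the differences ran from -0.00497 to 0.37 on the log2 scale. At 6 h 7 of 8 were higher in the E2F1 line, against 22.2% of all genes. The 6 h difference was largest for Ncaph (2.20, SE 0.37, adjusted p = 0.000147) and Ncapd3 (1.94, SE 0.25, adjusted p = 7.6e-06), and Ncapg at 0.98 did not pass (adjusted p = 0.0799). At 12 h all 8 were higher, against 27.3%. The differences there ran from 1.27 for Ncaph2 (SE 0.14) to 4.39 for Ncaph (SE 0.37, adjusted p = 3.98e-08), a 21.0-fold difference to which the fall of Ncaph in the EV line added 1.16.

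The E2F1 course was also set against serum, again as a difference of changes; the 2 stimuli acted in different lines. At 6 h all 8 genes were higher in the E2F1 course, against 30.3% of all genes, from 0.63 for Ncaph2 to 2.81 for Ncaph. Of these, Ncapg (1.35) did not pass without EV 0 h replicate 2 or serum 6 h replicate 1 (adjusted p = 0.0781 and 0.0703). At 12 h 7 of 8 were higher, against 25%. Ncapd2 and Ncaph differed most, each by 1.74 (SE 0.37, adjusted p = 0.000769 and 0.000793), then Ncapg by 1.09, Smc4 by 1.02, Ncapd3 by 0.75, Smc2 by 0.71 and Ncaph2 by 0.51. Ncapg2 was the exception: its changes of 2.57 and 2.15 differed by 0.42 (95% interval -0.30 to 1.14, adjusted p = 0.334). The 12 h calls of Smc2, Ncapg and Ncapd3 ended without EV 0 h replicate 2, where their differences were 0.43, 0.64 and 0.43. They also ended without serum 12 h replicate 2, with differences of 0.60, 0.99 and 0.63. At 2 h 4 of 8 were higher, against 26.6%, by 1.17 for Ncapd3, 1.13 for Ncaph, 0.98 for Ncapd2 and 0.81 for Smc4. The 2 h calls of Ncapd2 and Ncaph ended without E2F1 2 h replicate 2, EV 0 h replicate 2 or serum 2 h replicate 2. Without EV 0 h replicate 2 their differences were 0.62 and 0.71. Without EV 0 h replicate 1 more genes passed at 2 h.

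Summed per kb, condensin I genes outweighed condensin II genes in 1 group, the E2F1 line at 12 h. Normalized counts per kb were summed over the 3 genes particular to condensin I and over the 3 particular to condensin II in each library. Condensin I stood at 0.677 ± 0.0116 of condensin II at 0 h in the E2F1 line (SD, n = 2), at 0.735 ± 0.0412 at 2 h, 0.842 ± 0.0445 at 6 h and 1.58 ± 0.0310 at 12 h. The ratio exceeded 1 in both libraries of that group and in no other library. In the EV line on doxycycline it went from 0.566 ± 0.116 at 0 h to 0.320 ± 0.00355 at 12 h. In serum it was 0.363 ± 0.135 at 6 h and 0.644 ± 0.0515 at 12 h, within the SD of the EV 0 h libraries. On the log2 scale the 12 h ratio was above that of 0 h by 1.22 in the E2F1 line and by 0.20 in serum, and without EV 0 h replicate 1 the serum change was -0.01. With coding length in place of exon length the E2F1 ratio was 0.516 at 0 h and 1.20 at 12 h. Most of the condensin II sum at 0 h in the E2F1 line was Ncaph2, at 1054 per kb beside 174 for Ncapg2 and 154 for Ncapd3. Ncaph2 also had the smallest 12 h log2 change there, 1.03 against 3.23 for Ncaph. The other paired subunits differed less: 2.57 for both Ncapg and Ncapg2, 2.51 for Ncapd2 and 2.29 for Ncapd3. The ratio is thus weighted to Ncaph2. It is a description of RNA levels and was not tested.

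**Figure D4:**
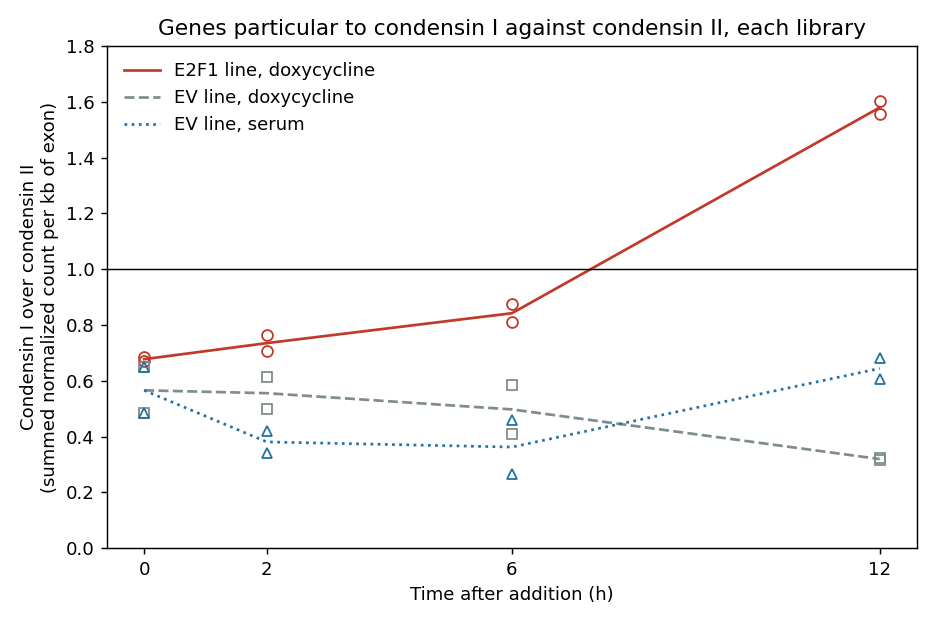
Summed normalized counts per kb of exon of Ncapd2, Ncaph and Ncapg over those of Ncapd3, Ncaph2 and Ncapg2, against hours after addition. Points are single libraries and lines join group means; the horizontal line marks equal sums. The E2F1 line reaches a mean of 1.58 at 12 h, and all other libraries lie below 1.

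The other SMC complexes and the known partners of condensin were read from lists, beside 31.8% of all genes higher and 29.7% lower at 12 h in the E2F1 line. Of the 8 measured genes of the SMC5/6 complex, which acts in repair and replication, 8 were higher at 12 h in the E2F1 line, with a median log2 change of 1.09. Nsmce2, its SUMO ligase, had 1.58 (SE 0.15) and Smc6 1.57 (SE 0.08). Of 16 genes of cohesin and its regulators, which hold sister chromatids together, 12 were higher and 2 lower, with a median of 1.03. Esco2, the S-phase acetyltransferase of cohesin, had 3.47 (SE 0.35) and Cdca5, the cohesion factor sororin, 2.64 (SE 0.26), while Mau2, a loader subunit, had -0.29. The condensin median of 2.40 stood above both, with overlapping ranges: 1.03 to 3.23 for condensin, 0.41 to 1.58 for SMC5/6 and -0.54 to 3.47 for cohesin. Of 32 partners in chromosome condensation, 25 were higher and 5 lower, with a median of 2.03. The largest changes were those of Aurkb (2.94), Ccna2 (2.67), Mki67 (2.58), the surface protein of mitotic chromosomes, and Sgo2a (2.50), a protector of centromeric cohesion. Aurkb, Aurka, Top2a, Cdk1, Ccnb1, Ccnb2, Plk1, Birc5 and Bub1 are also in the mitosis list, so the partner and mitosis lists are not independent. At 12 h of serum, where 36% of all genes were higher and 29.7% lower, 7 of 8 SMC5/6 genes were higher and 0 lower. Of the cohesin genes 8 of 16 were higher and 3 lower there, and of the partners 18 of 32 were higher and 3 lower. Fibroblast markers went the other way in the E2F1 line at 12 h, 11 of 12 lower with a median of -0.77. At 12 h of serum 7 of the 12 were lower and 2 higher, with a median of -0.63. Their part in the result was not tested.

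The members' courses were alike over the 11 group means. Pearson's r between any 2 of them ran from 0.922 to 0.993 over the 28 pairs, with a median of 0.970; these groups share lines and libraries, so r is a description. Ncaph was closest to the members' average (0.995) and Ncapd3 farthest from it (0.975). Outside the family, the 6 genes most like the average were Gen1, a Holliday junction resolvase (r = 0.998), Cenpq, a centromere protein (0.993), Ccdc14 (0.991), Tk1, thymidine kinase (0.989), Nmral1 (0.987) and Rpa3, a subunit of the single-strand binding protein RPA (0.987). The gene most like Ncapg was the mitotic kinase gene Aurkb (0.997), that for Ncapd2 Sgo2a (0.994) and for Smc2 the spindle checkpoint gene Mad2l1 (0.994). The nearest to Ncapg2 was Rfc5, a subunit of the replication clamp loader (0.994), for Ncapd3 Nmral1 (0.990) and for Smc4 Cenpq (0.993). Gen1 was first for both kleisins, Ncaph (0.993) and Ncaph2 (0.996). By Spearman's rank correlation, only 1 of the 6 genes named for the average remained among the first 6.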

How the data were processed

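The 8 genes, the gene lists and the comparisons were chosen with earlier results of these data known. Per the labels' protocols, polyA libraries were read in pairs of 150 bp. FastQC, Trimmomatic, HISAT2, featureCounts and DESeq2, with the build mm10, are named without versions in the submitters' processing notes; the annotation and the use of strand are not given in the sources used here. The main table holds what the authors deposited as normalized counts rounded to whole numbers, treated here as a score and not as raw counts. Further deposited tables hold the authors' log2 fold changes and adjusted p-values for genes past an absolute log2 change of about 2.0 and a p-value of 0.05.

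Values were analysed as log2(value + 1) in limma 3.58.1 (R 4.3.3): 11 group means, 22 libraries, 11 residual degrees of freedom, empirical Bayes moderation with a trend, Benjamini-Hochberg adjustment over 11208 genes in each of 18 comparisons, threshold 0.05. With 2 libraries against 2, an exact permutation test could not go below p = 0.333. In simulated data for 12 h in the E2F1 line over 11208 genes, 83 of 100 genes changed by 1 and 97 of 100 changed by 2 on the log2 scale were called, with 12 unchanged genes. The simulated noise was independent between genes, with the same spread in all groups, and few genes changed. In the data 61.5% of all genes were called in that comparison, so the simulation does not give the error rates here. Per-kb levels used GENCODE M21 exon lengths; 10977 of 11208 gene identifiers matched with version, all 8 members among them. All 8 members are named; of each other list, up to 4 genes with the largest called 12 h change in the E2F1 line, and from the likeness measure the 6 nearest genes and the nearest for each member. Other list genes (Mau2, Kif23, Rrm1), Lcorl, Ddx3y and the printed promoters were chosen after their values were seen. Partners that are also in the mitosis list are named for that overlap. Alternatives were a pseudocount of 8, a mean of at least 500, quantile normalization, equal totals, a replicate block, only the groups compared, a 2-fold minimum, leaving out each library and, added after seeing the data, leaving out the 2 h doxycycline libraries and comparing serum with EV doxycycline of the same time. The batch or date of libraries is not given in the labels. Python 3.11.15, pandas 2.3.3, numpy 2.4.6 and matplotlib 3.10.9 made the tables and figures.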

Additional observations from a re-analysis of the deposited data

Results flagged for a closer look

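The change of a condensin gene differed between the lines or stimuli in 34 tests of the difference itself (limma, adjusted over 11208 genes). The tests covered all 8 genes at 2, 6 and 12 h, against EV doxycycline and against serum. Of all genes, 0.0535% at 2 h, 22.2% at 6 h and 27.3% at 12 h passed as higher against EV doxycycline. Against serum the shares were 26.6% at 2 h, 30.3% at 6 h and 25% at 12 h. Values are differences of log2 changes, the E2F1 line minus the other course. Against doxycycline in the EV line at 6 h the difference was 1.27 for Smc2, 1.06 for Smc4, 1.15 for Ncapd2, 2.20 for Ncaph, 1.94 for Ncapd3, 0.57 for Ncaph2 and 1.87 for Ncapg2. At 12 h it was 3.15 for Smc2, 2.35 for Smc4, 3.54 for Ncapd2, 4.39 for Ncaph, 4.01 for Ncapg, 2.82 for Ncapd3, 1.27 for Ncaph2 and 3.49 for Ncapg2. Ncapd2 at 6 h did not pass without E2F1 6 h replicate 1, E2F1 0 h replicate 1, EV 0 h replicate 2 or EV doxycycline 6 h replicate 1 (adjusted p from 0.0549 to 0.136).

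Against serum at 2 h the difference was 0.81 for Smc4, 0.98 for Ncapd2, 1.13 for Ncaph and 1.17 for Ncapd3. At 6 h it was 1.23 for Smc2, 1.23 for Smc4, 1.79 for Ncapd2, 2.81 for Ncaph, 1.35 for Ncapg, 2.17 for Ncapd3, 0.63 for Ncaph2 and 2.16 for Ncapg2. At 12 h it was 0.71 for Smc2, 1.02 for Smc4, 1.74 for Ncapd2, 1.74 for Ncaph, 1.09 for Ncapg, 0.75 for Ncapd3 and 0.51 for Ncaph2. All of these comparisons rest on the pair of EV 0 h libraries, whose condensin values differed by a median of 0.68 on the log2 scale. The 12 h difference of Ncapg did not pass when any of 7 libraries was left out, and that of Smc2 when any of 6 was left out.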

How the results depend on the processing

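The labels do not say what a replicate number marks, and over 55 pairs of groups same-numbered deviations correlated above 0.1 in 18 and below -0.1 in 6, so the numbers were not taken as pairing. As a hint from the data, the doxycycline groups of 0, 6 and 12 h correlated within each line (0.303 to 0.455 in EV, 0.142 to 0.357 in E2F1), and the 6 values below -0.1 all involved a 2 h doxycycline group. With the replicate block, 104 of 104 member values kept their side of the threshold; 8 members were called at 12 h in the E2F1 line and 5 at 12 h of EV doxycycline. All 104 values were also unchanged in call with a pseudocount of 8 and with a mean of at least 500. With a minimum change of 2-fold, the members called were 3 at 6 h in the E2F1 line, 2 lower at 2 h and 0 lower at 6 h of serum, 5 higher at 12 h of serum, and 3 lower at 12 h of EV doxycycline. With the same minimum 2 differed between E2F1 and serum at 2 h and 4 at 12 h. A minimum change can only lower the number called, for the members as for all genes. With only the groups compared, 2 were lower at 6 h of serum and 0 at 12 h of EV doxycycline. With equal totals, which moved the median log2 change of all genes by -0.37 at 2 h and -0.21 at 6 h of serum and by -0.12 at 6 h in the E2F1 line, 8 differed between E2F1 and serum at 2 h. The side of the threshold was kept by 98 of 104 member values with quantile normalization, 96 with equal totals and 91 with only the groups compared, and none of these changed sign. Against EV doxycycline of the same time, 2 were lower at 6 h of serum, and Smc2 there changed sign (0.0396). Without the 2 h doxycycline libraries, 3 were lower at 12 h of EV doxycycline. By Spearman's rho, 1 of the 6 nearest genes remained.

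Leaving out each library in turn gave 2 to 8 members lower at 2 h of serum, 0 to 7 at 6 h of serum and 0 to 7 at 12 h of EV doxycycline. It gave 2 to 7 higher in E2F1 than serum at 2 h, 4 to 8 at 12 h, and 0 to 5 higher in the E2F1 line at 0 h. The serum change of the complex ratio ran from -0.0099 to 0.411. Signs turned for Ncapg2 at 2 h of serum (-0.75 to 0.20), Ncaph2 at 6 h of serum (-0.25 to 0.00064), and Ncapg2 between E2F1 and serum at 2 h (-0.0375 to 0.910) and 12 h (-0.0558 to 0.892). The cause was not tested. In the fits that leave out a library, the one left in its group is assumed to vary like the others. The share of all genes called also moved in these fits at 12 h of EV doxycycline and between the lines at 0 h. The member counts there do not show a shift of the members alone. At 2 and 6 h of serum the share of all genes called lower changed little. Of the near-zero member changes (2 h doxycycline, EV 6 h doxycycline, 0 h), 48 of 488 values under the alternatives had the other sign. The number higher at 12 h in the E2F1 line was 8 under every alternative run.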
